A study of Mus musculus with 4 samples.

Results

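The 4 mouse tropomyosin genes, *Tpm1*, *Tpm2*, *Tpm3* and *Tpm4*, were examined through every isoform of theirs that was tested in the RNA-seq of *Setd2* knockdown fibroblasts. Members were taken by gene symbol from the deposited transcript table, which gave 22 of its 34200 transcripts: 13 of *Tpm1*, 3 of *Tpm2*, 5 of *Tpm3* and 1 of *Tpm4*. NIH/3T3 cells, an immortalised line of mouse fibroblasts, were transfected with Lipofectamine and a final siRNA concentration of 10 nM, and polyadenylated RNA was taken after 48 h for stranded libraries. The knockdown (KD) group, 2 libraries, received a pair of siRNAs against *Setd2* together, the gene of a histone methyltransferase, and the control (WT) group, 2 libraries, received Scrambled siRNA that targets no gene. The columns used here pool the 4 libraries, so they give the level of each isoform, its spread over the libraries and the uncertainty of assigning reads to it. They hold no value of a single library or group, and KD was not compared with WT. The depth of each library is unknown for the same reason.

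Tropomyosins are rod-shaped coiled-coil proteins that lie end to end along actin filaments and set which other proteins, such as myosins and cofilin, can act on them. The genes make several proteins through alternative first exons, a choice between mutually exclusive internal exons, and alternative final coding exons, although not every gene has each of these choices. Isoforms that start from exon 1a are long (high molecular weight) and those that start from the internal promoter at exon 1b are short (low molecular weight). Muscle sarcomeres use isoforms ending in exon 9a, while non-muscle cells mostly use exon 9d.

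Levels are given as normalised estimated counts, the number of reads that the authors' software assigned to a transcript after correction for library size, as the authors' mean over the 4 libraries on a log scale. Each level has 2 errors, which come from the authors' deposited variances on the log2 scale: the spread is the standard deviation over the 4 libraries, in which differences between KD and WT and between replicates cannot be told apart, and the assignment error is the standard deviation over repeated draws of the reads in the authors' software. Shares are percentages of a gene's summed level, and the error after ± is the spread carried through to the share in percentage points. A joint spread is the square root of the sum of 2 squared spreads. It treats the 2 as independent although both come from the same 4 libraries, so a ratio that is steady within libraries could not be seen. *Setd2* itself had a level of 1844 and a spread of 1.15, above 92.3% of all transcripts. Its level in each group was not used, so the knockdown cannot be checked from these columns.

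The label of the cells was checked against marker genes. All 10 fibroblast markers examined were in the table, led by *Fn1* at 323250 counts, and their summed level was 1236540. Skeletal muscle markers summed to 245, led by the intermediate filament gene *Des* at 146, and *Myod1*, *Myog* and *Mymk* were not listed. Among 6 smooth muscle markers the summed level was 9766, of which *Smtn* held 5581 and the smooth muscle actin gene *Acta2* 4001, while the defining marker *Myh11* was at 2.27. Epithelial, blood, endothelial and neuronal markers summed to 135, 724, 67.4 and 57.3. The most abundant of these were *Cdh1* at 113, *Lyz2* at 351, *Cdh5* at 30.9 and *Snap25* at 54.3.

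To compare the genes, levels were divided by transcript length. *Tpm4* was highest at 10229 counts per kilobase, followed by *Tpm3* at 9306, *Tpm1* at 8676 and *Tpm2* at 4498. Per kilobase the first 3 genes did not differ beyond their spread. On the log2 scale *Tpm4* was 0.14 above *Tpm3*, against a joint spread of 0.30, and *Tpm3* was 0.10 above *Tpm1*, against 0.28. *Tpm2* was 0.95 below *Tpm1*, more than their joint spread of 0.44. As shares of the summed tropomyosin level per kilobase, *Tpm4* held 31.3 ± 4.38%, *Tpm3* 28.5 ± 3.13%, *Tpm1* 26.5 ± 3.68% and *Tpm2* 13.8 ± 3.71%. Each of the 4 genes was above at least 95.3% of the 21517 genes with a length for every tested transcript. In counts that are not divided by length the sums were 21766 for *Tpm4*, 20576 for *Tpm3*, 14731 for *Tpm1* and 6191 for *Tpm2*. On this scale *Tpm3* was above *Tpm1* by more than their joint spread, while *Tpm4* and *Tpm3* did not differ beyond theirs.

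The exons that separate the isoforms are short. Exons 6a and 6b are coding exons of 76 bases that exclude each other, and one or the other is present in each of the 22 isoforms. They are shown because the isoform shares of *Tpm1*, *Tpm2* and *Tpm3* turn on them, and because *Tpm4*, whose tested isoform has a single exon at this position, can be placed by its sequence. Sequences are from the GENCODE annotation of GRCm38, 5′ to 3′ on the coding strand. Capitals mark the bases that differ from the other exon of the same gene, and for *Tpm4* those that differ from exon 6b of *Tpm1*. In *Tpm1* exon 6a lies at chr9:67032466-67032541 and exon 6b at chr9:67031951-67032026, both on the minus strand. In *Tpm2* they lie at chr4:43519003-43519078 and chr4:43518644-43518719, on the minus strand, and in *Tpm3* at chr3:90088401-90088476 and chr3:90089048-90089123, on the plus strand. The *Tpm4* exon lies at chr8:72146452-72146527 on the plus strand.
Tpm1 exon 6a: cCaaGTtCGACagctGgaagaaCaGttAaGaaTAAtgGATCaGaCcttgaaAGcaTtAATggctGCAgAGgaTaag
Tpm1 exon 6b: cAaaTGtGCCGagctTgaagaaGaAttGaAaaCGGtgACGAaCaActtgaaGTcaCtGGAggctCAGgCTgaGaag
Tpm2 exon 6a: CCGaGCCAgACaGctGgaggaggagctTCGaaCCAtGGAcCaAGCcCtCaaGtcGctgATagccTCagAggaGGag
Tpm2 exon 6b: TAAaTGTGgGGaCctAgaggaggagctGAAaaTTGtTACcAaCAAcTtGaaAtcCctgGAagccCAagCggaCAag
Tpm3 exon 6a: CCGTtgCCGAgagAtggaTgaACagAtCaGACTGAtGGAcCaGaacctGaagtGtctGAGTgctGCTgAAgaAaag
Tpm3 exon 6b: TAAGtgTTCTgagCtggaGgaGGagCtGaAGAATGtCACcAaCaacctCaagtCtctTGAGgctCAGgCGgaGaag
Tpm4 exon 6b: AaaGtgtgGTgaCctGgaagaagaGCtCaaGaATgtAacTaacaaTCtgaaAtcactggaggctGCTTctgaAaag

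Within a gene the alternatives differed at 33 of 76 bases in *Tpm1*, 35 in *Tpm2* and 37 in *Tpm3*. Exons of the same name were more alike across genes than exons of the same gene. Without *Tpm4*, the 3 pairs of exons 6a shared 61.8% to 65.8% of their bases and the 3 pairs of exons 6b 73.7% to 76.3%, while the 9 pairs of a 6a with a 6b exon shared 47.4% to 56.6%. The *Tpm4* exon shared 71.1% to 73.7% with the 6b exons and 43.4% to 55.3% with the 6a exons, and is named 6b here.

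**Figure D1:**
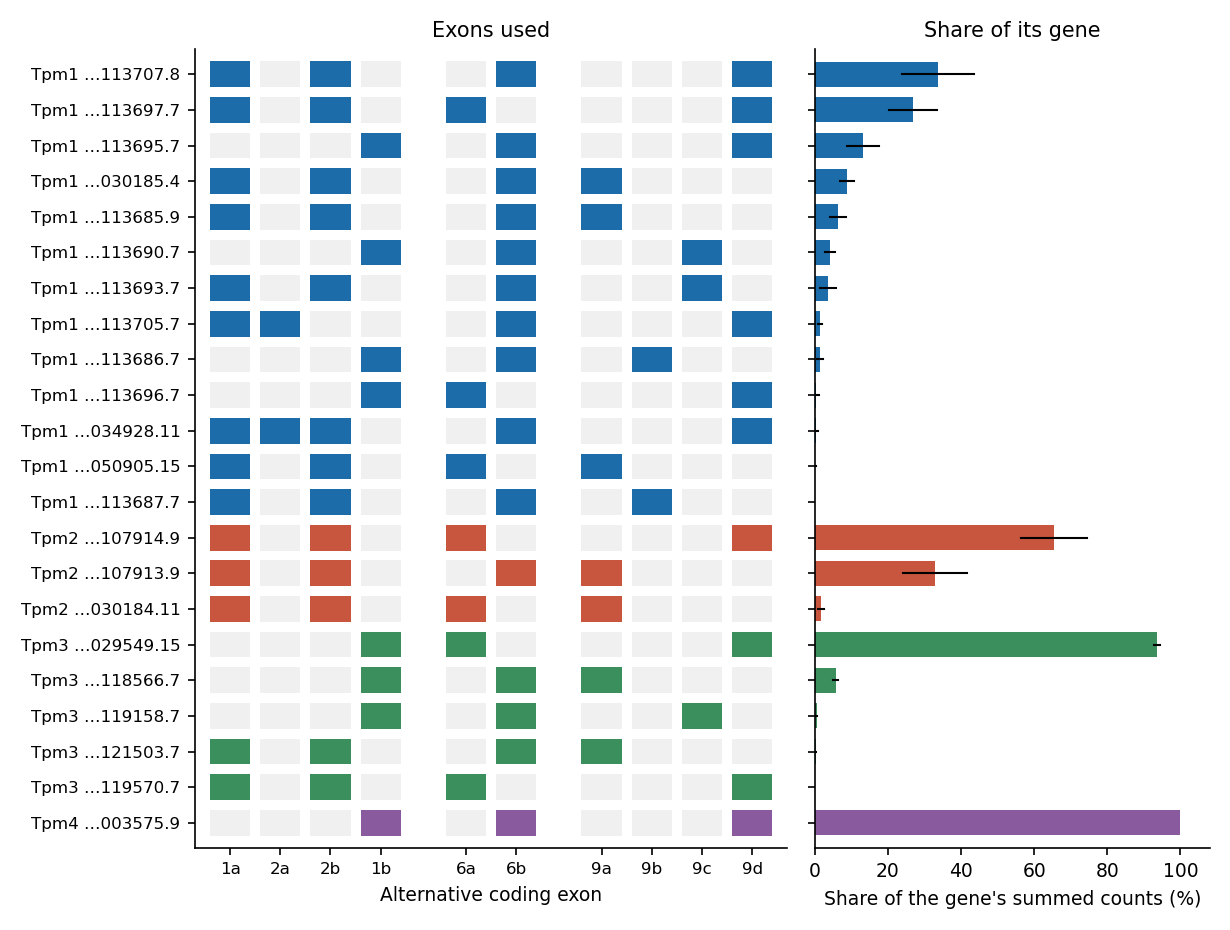
Left, alternative coding exons in each of the 22 tested isoforms, filled where present, with only the first exon filled at the coding end. Exon 9b of ENSMUST00000113685.9, ENSMUST00000050905.15 and ENSMUST00000121503.7 and exon 9d of ENSMUST00000118566.7 are thus left empty although present. Right, the share of the gene's summed counts held by each isoform (%, with the spread over the 4 libraries as a line, drawn down to 0 at most). The leading isoform held 93.6% of *Tpm3* and 33.6% of *Tpm1*; *Tpm4* has 1 tested isoform, whose share is 100% by construction.

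*Tpm1*, the gene with the most isoforms here, spread its reads over many of them. Only 5 genes in the table had 13 or more tested transcripts. The leading isoform, ENSMUST00000113707.8, combines exons 1a, 2b, 6b and 9d and codes for 284 amino acids, and had a level of 4948 and a share of 33.6 ± 9.85%. ENSMUST00000113697.7 differs from it in the coding region by exon 6a in place of 6b and had a level of 3955 and a share of 26.8 ± 6.44%. The order of these 2 isoforms was within their spread, with a log2 ratio of 0.32 against a joint spread of 0.71. Among the 6993 genes with more than 1 tested transcript, the median share of the leading one was 76.1%, and 0.93% of these genes had a lower leading share than *Tpm1*. A gene with 2 tested transcripts cannot have a leading share below that of *Tpm1*. Genes with about as many transcripts as *Tpm1* were not compared on their own, so the low share may follow from the number of isoforms.

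The other *Tpm1* isoforms that end in exon 9d were lower. The short isoform ENSMUST00000113695.7 (exons 1b, 6b and 9d, 248 amino acids) had a level of 1951 and a share of 13.2 ± 4.35%, and lay 1.02 below ENSMUST00000113697.7 on the log2 scale, more than their joint spread of 0.60. Its counterpart with exon 6a, ENSMUST00000113696.7, had a level of 41.8. ENSMUST00000113705.7, which carries exon 2a, the smooth muscle alternative to exon 2b, had a level of 215 and a share of 1.46 ± 0.59%. ENSMUST00000034928.11 holds exons 2a and 2b together, codes for 326 amino acids and had a level of 36.1.

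*Tpm1* isoforms with other ends were also present. Of the isoforms that end in the sarcomeric exon 9a, ENSMUST00000030185.4 (exon 6b) had a level of 1305 and a share of 8.86 ± 1.94%, and ENSMUST00000113685.9, which has the same coding exons up to exon 9a and runs on into exon 9b, had a level of 934 and a share of 6.34 ± 2.15%. ENSMUST00000050905.15, with exon 6a before exon 9a, had a level of 13.1. Exon 9c, known from brain isoforms, ended the short ENSMUST00000113690.7 at 609 counts and the long ENSMUST00000113693.7 at 515 counts, an order within their joint spread. Per kilobase the order turned, with 211 for the short isoform of 2890 bases and 488 for the long isoform of 1054 bases, a log2 ratio of 1.21 against a joint spread of 1.00. Exon 9b ended ENSMUST00000113686.7 at 203 counts and ENSMUST00000113687.7 at 5.73. Of the 12 neighbouring pairs in the order of *Tpm1* counts, 3 differed by more than their joint spread.

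*Tpm2*, the gene of beta-tropomyosin, made long isoforms of 284 amino acids only among those tested. ENSMUST00000107914.9, which joins exon 6a to exon 9d, had a level of 4050 and a share of 65.4 ± 9.13%. ENSMUST00000107913.9, which joins exon 6b to exon 9a as in skeletal muscle, had a level of 2040 and a share of 32.9 ± 8.74%. The log2 ratio between them was 0.99, more than their joint spread of 0.58. ENSMUST00000030184.11, which mixes exon 6a with exon 9a, had a level of 101 and a share of 1.64 ± 0.89%. The annotated ENSMUST00000107913.9 is 2098 bases long and ENSMUST00000107914.9 is 1164, and per kilobase the share of ENSMUST00000107913.9 was 21.6%. The coding ends of *Tpm2* are shown because they set its sarcomeric form apart: exon 9a at chr4:43515924-43516003 and exon 9d at chr4:43514782-43514861, minus strand of GRCm38, differed at 47 of 80 bases, in capitals.
Tpm2 exon 9a: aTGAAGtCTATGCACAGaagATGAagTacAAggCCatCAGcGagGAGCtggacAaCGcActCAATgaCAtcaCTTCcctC
Tpm2 exon 9d: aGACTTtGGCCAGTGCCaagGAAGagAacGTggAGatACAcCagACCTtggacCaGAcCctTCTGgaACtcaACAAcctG

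Troponins, the calcium-sensing partners of tropomyosin in striated muscle, were listed for 5 of 8 genes. *Tnnt2* had a level of 295 and *Tnnc1* 271, both above the median of 221 over all genes, while *Tnni1* had 29.1, *Tnnt1* 17.5 and *Tnni2* 5.34, and *Tnnt3*, *Tnni3* and *Tnnc2* were not listed. Per kilobase *Tnnc1* was at 376 and *Tnnt2* at 270.2, against 972 for the *Tpm2* isoform ENSMUST00000107913.9 and 1499 for the summed *Tpm1* isoforms ENSMUST00000030185.4 and ENSMUST00000113685.9.

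*Tpm3* was almost entirely short. ENSMUST00000029549.15 (exons 1b, 6a and 9d, 248 amino acids) had a level of 19249, a spread of 0.16 and a share of 93.6 ± 0.75%. ENSMUST00000118566.7 (exons 1b, 6b and 9a, running on into exon 9d) had a level of 1165 and a share of 5.66 ± 0.67%. ENSMUST00000119158.7, with exons 6b and 9c, followed at 110.0 counts. The long isoforms ENSMUST00000121503.7, the skeletal muscle form, and ENSMUST00000119570.7 had levels of 42.3 and 9.88 and together held 0.25 ± 0.06% of the counts, or 0.446% per kilobase. Each of the 4 neighbouring pairs in this order differed by more than its joint spread. *Tpm3* shares sequence with a processed copy: 1664 of the 3340 words of 31 bases in its tested isoforms also occur in *Tpm3-rs7*, which is not a member and had a level of 46.6, so reads could be split between them.

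Long and short isoforms of *Tpm3* start from separate promoters, and those that start from the downstream one held 99.7% of the counts. Both are listed in RefSeq (GRCm38.p6), plus strand, and are shown for this contrast from 250 bases before to 50 after the start, with capitals for the GC box (GGGCGG, either strand). The upstream promoter lies at chr3:90072401-90072700 and the downstream promoter at chr3:90079271-90079570.
Tpm3 upstream promoter: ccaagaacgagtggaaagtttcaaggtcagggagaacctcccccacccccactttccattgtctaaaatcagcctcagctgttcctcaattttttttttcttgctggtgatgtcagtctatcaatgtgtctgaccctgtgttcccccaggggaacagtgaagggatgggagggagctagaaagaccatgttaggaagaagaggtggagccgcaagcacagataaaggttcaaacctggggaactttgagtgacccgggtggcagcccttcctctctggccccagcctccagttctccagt
Tpm3 downstream promoter: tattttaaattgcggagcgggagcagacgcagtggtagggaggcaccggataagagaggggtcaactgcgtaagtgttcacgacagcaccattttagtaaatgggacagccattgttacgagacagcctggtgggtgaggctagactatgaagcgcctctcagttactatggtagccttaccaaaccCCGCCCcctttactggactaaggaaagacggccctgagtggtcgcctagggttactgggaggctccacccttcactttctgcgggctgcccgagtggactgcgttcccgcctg
The upstream promoter held 3 CpG dinucleotides and the downstream promoter 15, beside a median of 7.0 over 32851 promoters of the same length. The GC box occurred 0 times in the upstream and 1 time in the downstream promoter, and 35.7% of all promoters held it. These counts describe the letters of the windows only.

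*Tpm4* had 1 tested isoform, the short ENSMUST00000003575.9 (exons 1b, 6b and 9d, 248 amino acids), at 21766 counts with a spread of 0.26 and an assignment error of 0.01. Of its 2098 words of 31 bases, 83.5% occurred in no other transcript of the table. A further 347 words are shared with the gene *Gm7809*, which had a level of 19.9.

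**Figure D2:**
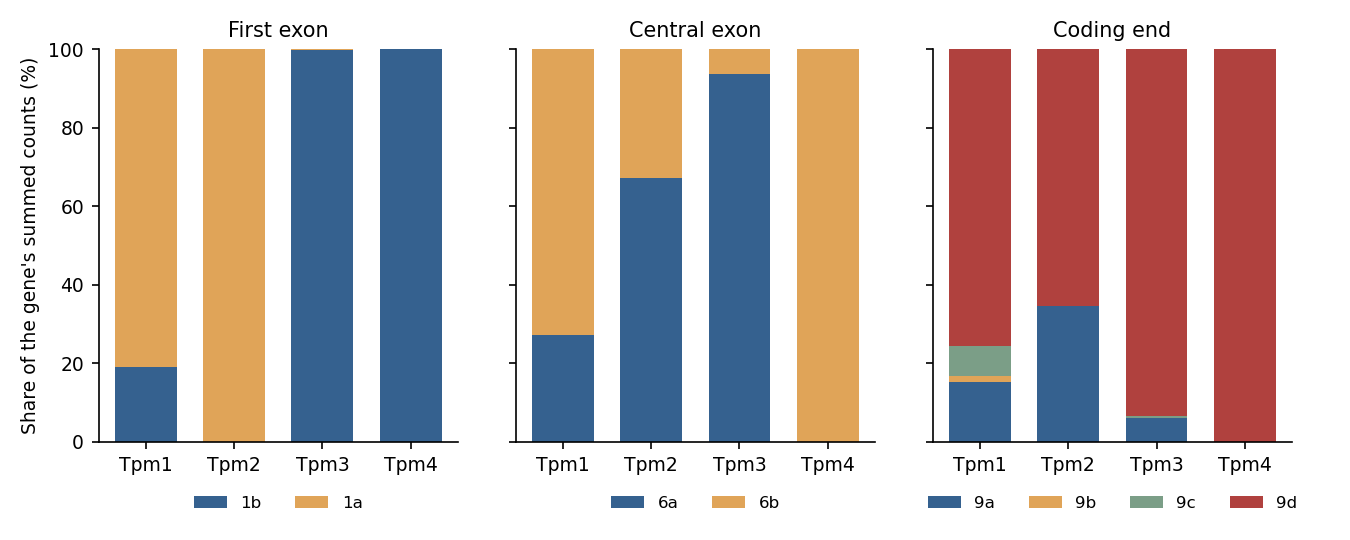
Share of each gene's summed counts (%) by first exon (1a long, 1b short), central exon and coding end. Isoforms with several end exons are counted under the first of them. *Tpm2* was long and *Tpm3* and *Tpm4* short, with 19.0% of *Tpm1* short, and exon 9d ended most counts of every gene.

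Shares were also added up by exon. Short isoforms held 19.0 ± 4.87% of *Tpm1* counts and 0 of *Tpm2*, against 99.7 ± 0.06% of *Tpm3*. Over the 4 genes short isoforms held 64.6 ± 4.36% of the level per kilobase. Exon 6a was used in 27.2 ± 6.48% of *Tpm1* counts, 67.1 ± 8.74% of *Tpm2* and 93.6 ± 0.75% of *Tpm3*. Isoforms with several end exons were counted under the first of them. By this count ends other than exon 9d held 24.3 ± 4.81% of *Tpm1*, 34.6 ± 9.13% of *Tpm2* and 6.40 ± 0.75% of *Tpm3* counts. The *Tpm3* value includes ENSMUST00000118566.7, at 5.66%, which runs on from exon 9a into exon 9d. Per kilobase, ends other than exon 9d held 27.9 ± 5.50% of *Tpm1* and 22.6 ± 7.07% of *Tpm2*, the reverse order. Neither difference was beyond the joint spread of these 2 genes. In *Tpm2* and *Tpm3* exon 6a went mainly with exon 9d and exon 6b with exon 9a, in *Tpm3* mostly followed by exon 9d. In *Tpm1*, by contrast, exon 6b went with every end.

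**Figure D3:**
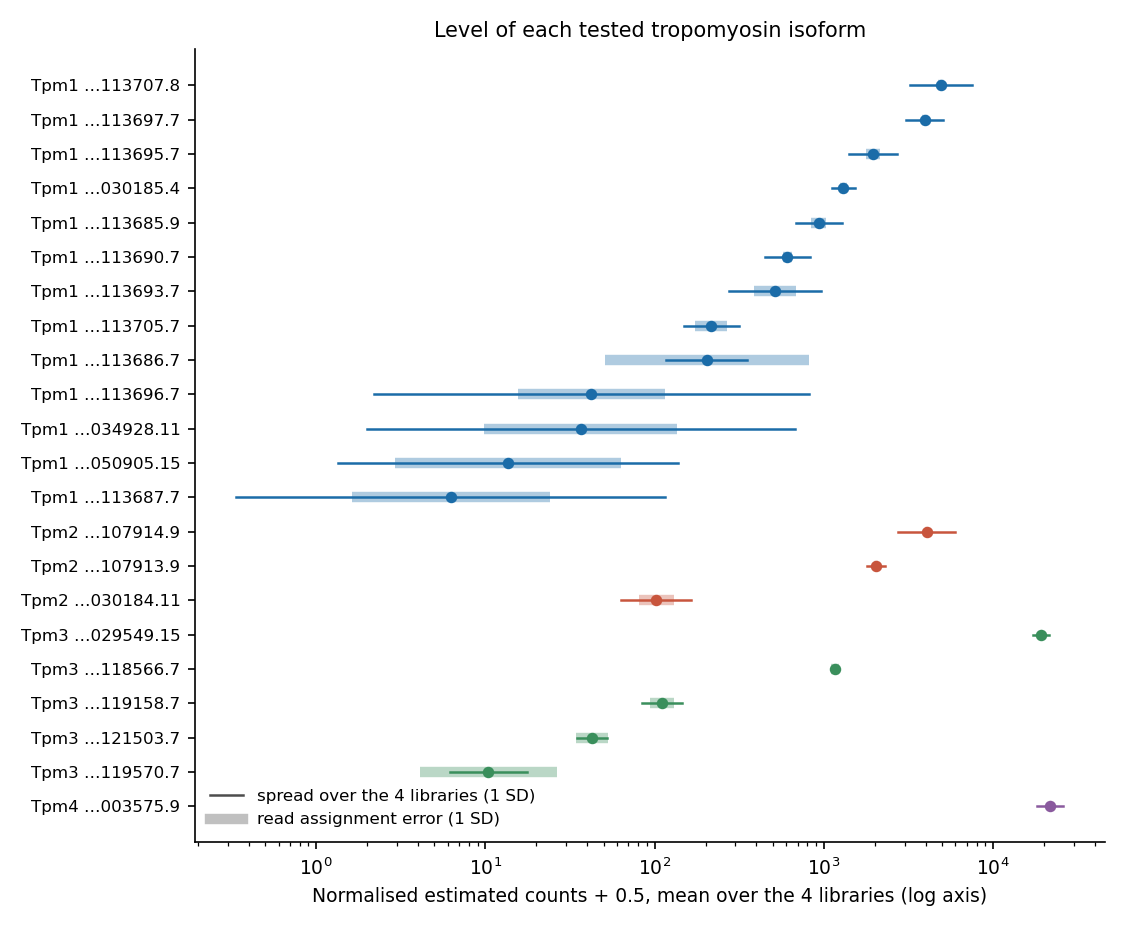
Level of each isoform as normalised estimated counts plus 0.5 (log axis, the authors' mean over the 4 libraries). Thin lines are the spread over the 4 libraries and thick pale lines the assignment error, both 1 standard deviation on the log scale; the lowest 4 *Tpm1* isoforms have spreads from 3.34 to 4.27.

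The spread over the libraries was set beside that of transcripts of similar level. Beside the 1000 transcripts nearest in level to each, 18 of 22 isoforms had a spread above the median, among them 13 of 13 of *Tpm1*, 2 of 3 of *Tpm2*, 2 of 5 of *Tpm3* and the 1 of *Tpm4*. The leading *Tpm1* isoform ENSMUST00000113707.8 had a spread of 0.61 against a median of 0.17, and the leading *Tpm2* isoform ENSMUST00000107914.9 had 0.56 against 0.16. In contrast the *Tpm2* isoform with exons 6b and 9a, ENSMUST00000107913.9, had 0.18 against 0.18, and the *Tpm3* isoform ENSMUST00000118566.7 had 0.08 against 0.20. The other *Tpm2* isoform with exon 9a, ENSMUST00000030184.11, had 0.69 against 0.33. Over all isoforms the median spread was 0.51, beside 0.31 for all transcripts. How much of this lies between KD and WT cannot be told apart from differences between replicates in these columns. Assignment errors were also above the median of transcripts of similar level for 12 of 13 *Tpm1* isoforms. The part of the assignment error in the spread was not tested.

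**Figure D4:**
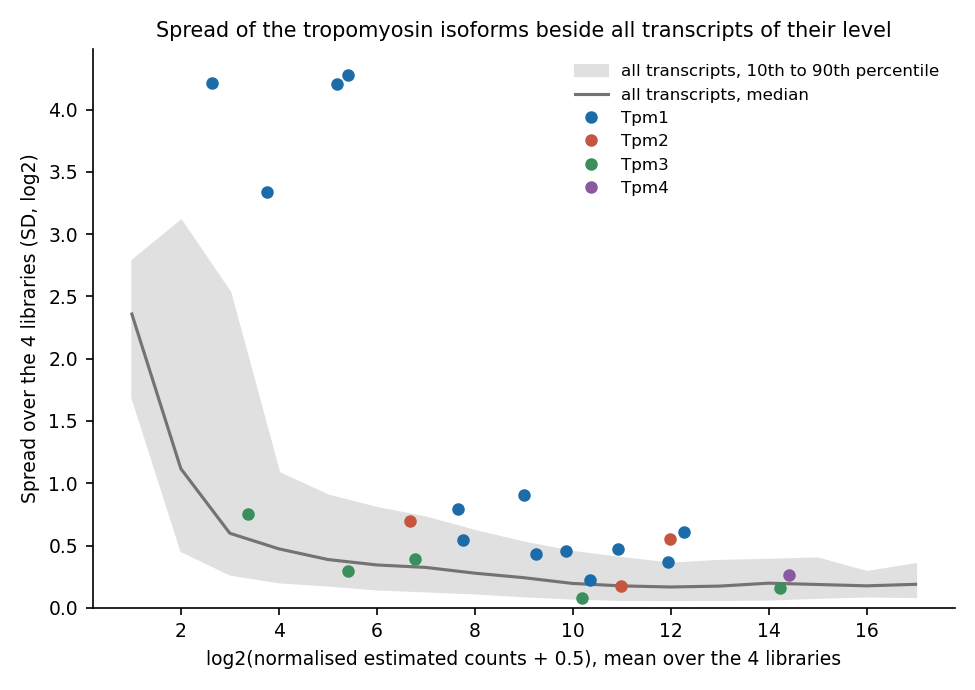
Spread over the 4 libraries (standard deviation, log2) against level for the 22 isoforms, with the median and the 10th to 90th percentile of all transcripts at each level. The 4 lowest *Tpm1* isoforms stand between 3.34 and 4.27, above the grey band.

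The 4 lowest *Tpm1* isoforms had spreads that leave their level loosely defined. ENSMUST00000113696.7 had a spread of 4.27, ENSMUST00000113687.7 4.21, ENSMUST00000034928.11 4.20 and ENSMUST00000050905.15 3.34, each above 98.7% of all transcripts. The mean on a log scale lies under the ordinary mean when libraries differ this much. For ENSMUST00000113696.7 the deposited mean and variance allow, with no library under 0, an ordinary mean from 140 to 907 counts, against 41.8 on the log scale, and for ENSMUST00000034928.11 from 130 to 728, against 36.1.

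Assignment errors were set beside the sequence that each isoform has to itself. Of the 22 isoforms, 10 have no word of 31 bases of their own among the transcripts of the table, and 8 of these are *Tpm1* isoforms. The assignment variance passed 1 on the natural log scale for 5 of 22 isoforms, all of *Tpm1*, beside 5.57% of all transcripts. ENSMUST00000113686.7, with 0 words of its own, had an assignment error of 2.00, larger than its spread of 0.79. ENSMUST00000030185.4, with 46.2% of its words to itself, had an assignment error of 0.06, beside a median of 0.05 for the 1000 transcripts nearest in level. ENSMUST00000113697.7, with 0 words of its own and a higher level, also had 0.06, beside a median of 0.02. Of the 22 isoforms, 19 had an assignment error above the median of transcripts of similar level.

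**Figure D5:**
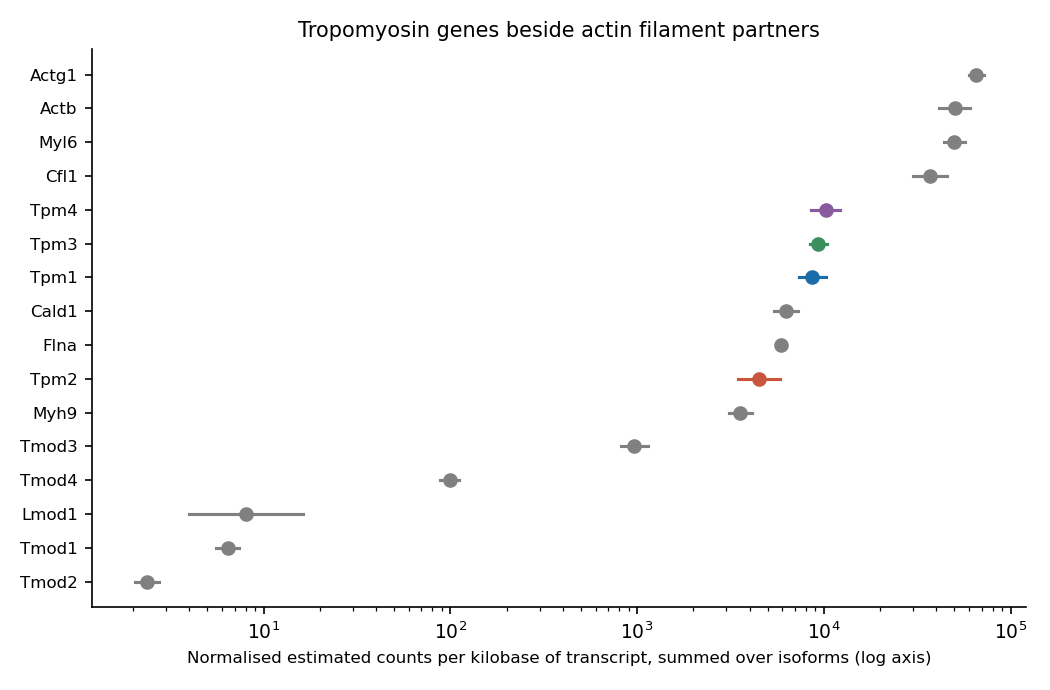
Summed level per kilobase of transcript (log axis) of the tropomyosin genes (coloured) and of actin filament partners (grey), with lines for the spread over the 4 libraries. *Tpm4*, *Tpm3* and *Tpm1* stand between *Cfl1* and *Cald1*.

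Tropomyosins were set beside the proteins they share filaments with. Of 46 actin filament partners 42 were listed, 37 of them at 100 counts or more. Per kilobase the actin genes *Actg1* and *Actb* had 65574 and 50283, and the 4 tropomyosin genes together had 32709, or 28.2% of the sum of both actins. The myosin light chain gene *Myl6* had 50002, the actin-severing cofilin gene *Cfl1* 37216, the crosslinker gene *Flna* 5860 and the non-muscle myosin gene *Myh9* 3574. Caldesmon, which binds tropomyosin on filaments, is made by *Cald1*, at 6273. Tropomodulins cap the slow-growing filament end together with tropomyosin, and of these *Tmod3* had 966, *Tmod4* 98.9, *Tmod1* 6.40 and *Tmod2* 2.38. The leiomodin gene *Lmod1* had 8.0, and *Lmod2* and *Lmod3* were not listed. Of the factors known to drive actin cytoskeleton genes, *Srf* had a level of 2315 counts and its cofactors *Mkl1* and *Mkl2* 2828 and 1470, while *Myocd*, the muscle cofactor, had 7.37.

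By the counts summed over isoforms, *Tpm1* lay nearest to *Tpt1-ps3*, *Sptbn1* and *Ptp4a2*, *Tpm2* to *Cyth3*, *Racgap1* and *Gabpb2*, *Tpm3* to *Cap1*, *Snrnp70* and *Rbm39*, and *Tpm4* to *Sept2*, *Pebp1* and *Odc1*. Of these 12 genes, *Cap1*, at 20548 counts beside 20576 for *Tpm3*, is also on the list of actin filament partners used here.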

How the data were processed

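RNA-seq libraries of 2 KD and 2 WT samples were grouped by the knockdown status in their labels. The authors trimmed reads with BBDuk (38.22), quantified transcripts with Kallisto (0.44.0) and modelled them in Sleuth (0.30.0). The submitters' processing notes also name bcl2fastq (2.17), HISAT2 and GRCm38. The transcript index is not given in the sources used here. The deposited means are on the natural log scale, obtained by the authors from size-factor normalised estimated counts plus 0.5. The variances that the authors deposited hold the spread over the 4 libraries and the variance of read assignment on the same scale. Other deposited columns hold the authors' comparison of KD with WT (effects, standard errors, test statistics, p-values, q-values and model variances). They were not used, and no test was made, although one had been planned in case values of single libraries were present.

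Here levels were computed as the exponential of the mean minus 0.5, summed over the tested isoforms of a gene, and divided by annotated length where stated. Errors of shares and sums treat isoforms as independent. Isoforms were matched by identifier to GENCODE M21 (GRCm38), as were 98.6% of all transcripts. Exons were lettered by their order along a gene where the tested isoforms hold all alternatives. The ends of *Tpm2* (9a, 9d) and *Tpm4* (9d) and the single exon 2 of *Tpm2* and *Tpm3* (2b) were named from the known structure of the genes, and the single central exon of *Tpm4* was called 6b and compared with the other exons 6. The calculation of shares was tested on simulated libraries with independent isoforms, no sharing of reads and smaller spreads than the widest here. The errors printed after ± were not tested there. Named genes were all tested isoforms, troponins and listed transcription factors, the 6 partners with the highest counts, all tropomodulin and caldesmon genes, and the 3 genes nearest in summed counts. Members and lists were chosen with earlier results of these data known. Python 3.11.15, numpy 2.4.6, pandas 2.3.3 and matplotlib 3.10.9 were used.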

Additional observations from a re-analysis of the deposited data

How the results depend on the processing

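Isoform shares and some exon shares of *Tpm1*, *Tpm2* and *Tpm3* were recomputed under each alternative. Gene shares were recomputed under all but the kept 0.5 and the limit to protein-coding isoforms. Single isoforms under 100 counts have no value where they were left out. Of the recomputed values, 130 of 150 moved by less than the spread over the libraries. This leaves out the limit to protein-coding isoforms, which all members are and which could move no value. Division by transcript length moved 14 of 32. Under it the leading isoform ENSMUST00000107914.9 held 77.4% of *Tpm2*, exon 6b, with its only isoform ENSMUST00000107913.9, 21.6% and exon 9a 22.6%, the leading isoform ENSMUST00000029549.15 held 92.8% of *Tpm3*, exon 6a 92.8% and long first exons 0.446%, and *Tpm2* and *Tpm3* held 13.8% and 28.5% of the tropomyosin sum. In *Tpm1* ENSMUST00000113685.9 moved from 6.34% to 8.91%, ENSMUST00000113690.7 from 4.13% to 2.43% and ENSMUST00000113686.7 from 1.38% to 2.34%. In *Tpm3* ENSMUST00000119158.7 moved from 0.535% to 1.08% and ENSMUST00000121503.7 from 0.205% to 0.399%. These moves follow from the different lengths of the annotated transcripts. Leaving out isoforms under 100 counts removed both long *Tpm3* isoforms, so that their share was 0, and moved no other value. Keeping the 0.5 moved 0 of 28 values past their spread. The ordinary mean in place of the log mean and the alternatives for exon shares were chosen after seeing the data. At the highest ordinary mean that the deposited values allow, 4 of 32 values moved, all of them shares of the 4 lowest *Tpm1* isoforms: 5.25% for ENSMUST00000113696.7, 4.21% for ENSMUST00000034928.11, 0.648% for ENSMUST00000050905.15 and 0.720% for ENSMUST00000113687.7. The spread of these shares is larger than the shares, so it is a weak limit for them: at the lowest ordinary mean with no library under 0 counts 1 of 32 values passed it, the share of ENSMUST00000113687.7 at 0.252% from 0.0389%, while ENSMUST00000113696.7 rose from 0.284% to 0.900%, ENSMUST00000034928.11 from 0.245% to 0.831% and ENSMUST00000050905.15 from 0.0891% to 0.238%.

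No paired analysis was possible because the columns used hold no values of single libraries. The comparison of KD with WT, its replicate block and leave-one-out were not run for the same reason. Depth per library is unknown, so counting error has no interval.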

Other observations

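The column of the gene table that is named as a sum of counts holds the sum of the log means of a gene's transcripts, with a largest difference of 1.14e-13 over 21945 genes. By this column *Tpm1*, with 13 tested isoforms, ranks 2 and *Tpm4*, with 1, ranks 5729, while by summed level *Tpm1* ranks 581 and *Tpm4* 354.

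Of the annotated transcripts, the table lists 13 of 21 for *Tpm1*, 3 of 6 for *Tpm2*, 5 of 16 for *Tpm3* and 1 of 2 for *Tpm4*. Of those with the basic tag of the annotation, 13 of 16 *Tpm1* transcripts are listed.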
